A study of Homo sapiens with 6 samples.

Results

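ABC transporters are the proteins of the ATP-binding cassette family, and the 45 protein-coding genes described here are those whose symbol is ABCA, ABCB, ABCC, ABCD, ABCE, ABCF or ABCG followed by digits only, of 19922 protein-coding genes and 21463 genes in the files. There are 12 ABCA, 9 ABCB, 11 ABCC, 4 ABCD, 1 ABCE, 3 ABCF and 5 ABCG genes. Messenger RNA was sequenced in 3 lines of human lung cancer (non-small cell) with mutant EGFR. Each line gave 1 library of a drug-resistant subline and 1 of its untreated parental cells, 6 libraries in all. Gefitinib, which blocks the EGFR kinase reversibly, was the selecting drug for the resistant HCC827-GR and PC9-GR (EGFR E19Del). Osimertinib, which binds EGFR covalently and reaches the T790M form too, was the drug for resistant H1975-OR (EGFR L858R/T790M). The parental HCC827, PC9 and H1975 cells carry the same EGFR changes and are labelled sensitive. Selection lasted 90 days with a rising dose, and per the labels the IC50 lay between 4.288 and 12.485 µM for resistant sublines and between 0.016 and 0.07 µM for parental cells. The labels do not say whether a subline is 1 clone or a mixed population, or whether the drug was present when RNA was taken. With 1 library per state and line no line has a replicate of its own, and n = 3 lines stands behind each test between states.

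An ABC transporter uses ATP, bound at a conserved nucleotide-binding domain, to carry a substrate across a membrane. The family is best known in cancer for pumps that export drugs: ABCB1 (P-glycoprotein, MDR1), the multidrug resistance proteins of the ABCC group and ABCG2 (breast cancer resistance protein), of which ABCB1 and ABCG2 are known to handle EGFR kinase inhibitors as well as classical chemotherapy. Most ABCA proteins and part of the ABCG group instead move sterols and phospholipids, as ABCA3 does in the lamellar bodies of alveolar cells, and ABCE1 and the ABCF proteins have no membrane domain and act in translation.

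The libraries held 24463011 to 29366085 exon reads in the resistant sublines and 21222102 to 28140012 in the parental lines. ABC genes took 0.148% to 0.160% of them in the resistant and 0.141% to 0.159% in the parental libraries. Levels are given as CPM, exon reads per 1000000 after TMM scaling (a correction for library composition), and a count of 0 allows up to 0.0985 to 0.145 CPM by 3 reads, counting error only. The epithelial keratins KRT8 and KRT18 were at 507.9 CPM or more in every library. EPCAM was at 10.6 CPM in resistant and 432 CPM in parental HCC827, and at 0.460 CPM in resistant and 26.6 CPM in parental H1975. CDH1 was at 22.1 CPM in resistant and 467 CPM in parental HCC827, and at 0.131 CPM in resistant and 22.4 CPM in parental H1975. The 6 epithelial markers summed to 1436 to 5545 CPM in the resistant and 2303 to 10510 CPM in the parental libraries. All 6 were at least 2-fold lower in HCC827, 0 in PC9 and 4 in H1975. The 4 mesenchymal markers VIM, CDH2, ZEB1 and FN1 summed to 1450 CPM in resistant and 161 CPM in parental HCC827, 893 CPM in resistant and 163.5 CPM in parental PC9, and 3961 CPM in resistant and 3123 CPM in parental H1975, with all 4 at least 2-fold higher in HCC827, 2 in PC9 (the other two were under 10 CPM there) and 0 in H1975. The lineage factor NKX2-1 had 121 CPM in resistant and 140.5 CPM in parental HCC827, and was at or under 8.45 CPM in the others. NAPSA had 28.9 CPM in resistant and 289 CPM in parental HCC827, and SFTPB had 0.0375 and 3.32 CPM in the same order. Both were under 1 CPM in PC9 and in H1975. NKX2-1 was under 1 CPM in PC9 too, so PC9 showed none of the 3 lung lineage markers. Of the leukocyte markers only CD68, a lysosomal protein, passed 0.624 CPM, and the highest endothelial value was 14.4 CPM for PECAM1 in parental PC9. The fibroblast marker COL1A1 reached 126 CPM in resistant H1975, against 59.4 CPM in the parental library. The other fibroblast markers did not follow it. PDGFRB had 4.89 CPM in resistant and 4.67 CPM in parental H1975, and DCN was at or under 0.1125 CPM in every library. The part of any of these markers in the results below was not tested. The libraries are bulk RNA, so fewer cells with a transcript and less transcript per cell cannot be told apart.

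Of the 45 genes, 17 had at least 10 CPM in all 6 libraries, 12 were under 1 CPM in all 6, and 4 (ABCA10, ABCA13, ABCB4 and ABCG1) lay between 1 and 10 CPM at their highest. The 12 low ones include 8 with at most 3 reads in every library: ABCA8, ABCA9, ABCB5, ABCB11 (the bile salt pump), ABCC8 (a potassium channel regulator), ABCC12, ABCG5 and ABCG8 (the sterol pair of liver and gut). The other 4 were ABCA6, ABCC11, ABCD2 and ABCG4. Levels of different genes are compared per length, as TPM. The 9 drug efflux pumps together held 197.5 TPM in resistant and 159 TPM in parental HCC827, 202 TPM in resistant and 179 TPM in parental PC9, and 141 TPM in resistant and 170.5 TPM in parental H1975 (values from 1 library each, with no test). Lipid and sterol transporters held less than the pumps in every library, at 84.7 against 59.97 TPM for resistant and parental HCC827, 40.2 against 48.6 TPM for PC9 and 114 against 110 TPM for H1975. The soluble translation factors held the most in every library, 281 to 486 TPM in the resistant and 306 to 432 TPM in the parental ones. Only 57.7% of ABCE1 reads and 5.65% of ABCF2 reads mapped uniquely, so that rank rests partly on shared reads.

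**Figure D1:**
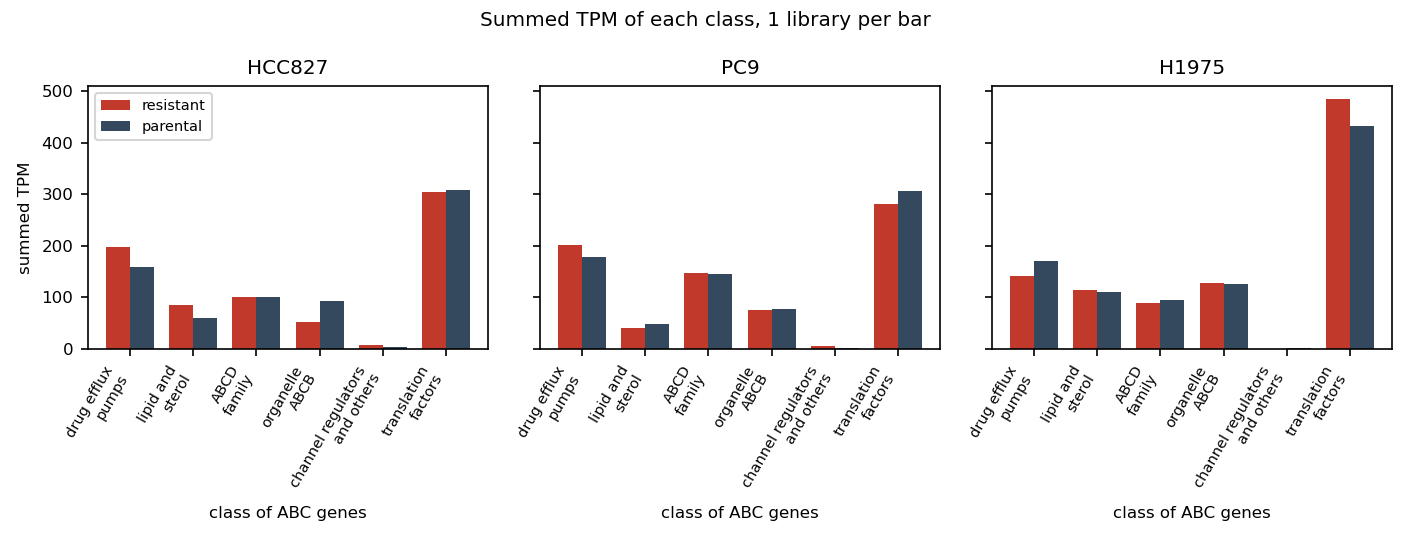
Summed TPM (vertical axis) of 6 classes of ABC genes in each line, with the resistant library left of the parental one; each bar is 1 library, so there are no error bars. The translation factors are the tallest class in all 6 libraries, partly from ABCE1 and ABCF2 reads that did not map uniquely. The organelle transporters of the ABCB group stand at 51.2 TPM in resistant and 93.2 TPM in parental HCC827.

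ABCB1, the multidrug efflux pump P-glycoprotein, was detected in HCC827 alone and was higher in its resistant subline. ABCB1 (ENSG00000085563, hg38 chromosome 7, 87503633 to 87713323, minus strand) had 52.7 CPM (1405 reads) in the resistant and 1.60 CPM (44 reads) in the parental HCC827 library, and 0 reads in all 4 libraries of PC9 and H1975. The HCC827 ratio was 32.8 (95% counting interval 24.3 to 45.4), and per length the gene stood at rank 11 of the 45 in the resistant and rank 27 in the parental library, with 25.2 and 0.812 TPM. It missed the filter for the test over the lines, which asks for reads in 3 libraries. Without the filter its fitted log2 value, which rests on HCC827 alone, was 4.89 ± 0.77 (SE; unadjusted p = 0.00507, edgeR adjusted p = 0.947). Of its reads 99.9% mapped uniquely.

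Because transcription of ABCB1 can begin at a downstream or an upstream start, both RefSeq windows are shown, each from 250 bases before the start to 50 after it (build GRCh38.p14, minus strand). The upstream window is chr7:87713246-87713545 and the downstream window is chr7:87600835-87601134; both starts lie inside the gene as the files place it. The windows of ABCC2 (chr10:99782390-99782689, plus strand) and ABCA1 (chr9:104928106-104928405, minus strand) follow, since these genes had the lowest ratio in HCC827 and the lowest in PC9. Capitals mark matches, on either strand, to 6 short motifs: the inverted CCAAT box ATTGG, the GC box GGGCGG, the antioxidant response core TGACNNNGC, the AP-1 site TGANTCA, the E-box CACCTG bound by ZEB repressors, and the DR4 repeat bound by the LXR sterol receptors.
ABCB1 upstream: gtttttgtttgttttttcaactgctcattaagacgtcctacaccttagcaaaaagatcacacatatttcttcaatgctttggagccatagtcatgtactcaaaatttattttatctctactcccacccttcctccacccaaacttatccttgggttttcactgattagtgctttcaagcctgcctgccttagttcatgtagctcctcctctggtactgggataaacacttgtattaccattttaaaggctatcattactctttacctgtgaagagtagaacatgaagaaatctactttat
ABCB1 downstream: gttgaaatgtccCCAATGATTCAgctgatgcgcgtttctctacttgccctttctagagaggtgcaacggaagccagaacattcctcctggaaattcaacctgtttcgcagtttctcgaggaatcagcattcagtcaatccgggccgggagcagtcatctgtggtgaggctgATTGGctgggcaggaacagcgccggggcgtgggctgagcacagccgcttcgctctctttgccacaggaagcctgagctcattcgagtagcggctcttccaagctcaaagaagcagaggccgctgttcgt
ABCC2: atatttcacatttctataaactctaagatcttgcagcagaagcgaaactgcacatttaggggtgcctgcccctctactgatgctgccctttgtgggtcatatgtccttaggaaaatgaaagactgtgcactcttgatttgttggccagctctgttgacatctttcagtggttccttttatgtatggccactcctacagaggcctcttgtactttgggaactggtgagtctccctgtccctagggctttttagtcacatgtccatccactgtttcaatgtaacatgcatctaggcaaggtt
ABCA1: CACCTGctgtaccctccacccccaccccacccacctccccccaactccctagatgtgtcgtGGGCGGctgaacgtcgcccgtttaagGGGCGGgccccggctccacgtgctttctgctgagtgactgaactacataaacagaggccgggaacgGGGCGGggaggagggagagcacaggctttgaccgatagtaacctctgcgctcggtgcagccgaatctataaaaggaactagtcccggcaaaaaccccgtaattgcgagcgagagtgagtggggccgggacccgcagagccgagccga
The downstream ABCB1 window held 2 CCAAT boxes, at positions -238 to -234 and -79 to -75 from the start, and an AP-1 site at -234 to -228 that overlaps the first box by 1 base. The ABCA1 window held 3 GC boxes and an E-box, and the upstream ABCB1 and the ABCC2 windows held no exact match to the 6 motifs. The search cannot tell whether the ABCA1 window holds a DR4 repeat that departs from the exact string. Among 35116 RefSeq windows of this length, 34.6% held the CCAAT box, 45.0% the GC box, 7.71% the AP-1 site, 20.6% the E-box, 13.35% the antioxidant core and 0.0199% the LXR repeat. Of the 35 ABC genes with such a window, 11 held a CCAAT box, 21 a GC box and 12 the antioxidant core. An AP-1 site was held by 6, the E-box by 10 and the exact LXR repeat by 0. That string is rare in all windows, so the 0 does not show that a looser LXR element is absent. These matches are letters in a window and were not read as sites.

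The 2 genes that flank or overlap ABCB1 were also higher in resistant HCC827. ABCB4, the phosphatidylcholine transporter of bile, lies 23198 bases away and had 4.91 CPM (131 reads) in the resistant and 0.328 CPM (9 reads) in the parental HCC827 library, a ratio of 14.97 (95% counting interval 7.65 to 33.5); it held at most 4 reads in any other library. RUNDC3B, which overlaps ABCB1 on the other strand, had 4.99 CPM in the resistant and 0.182 CPM in the parental HCC827 library. How strand was used in counting is not given in the sources used here, so reads of the overlapping pair may be shared. Of the 12 protein-coding neighbours within 1000000 bases, 7 had at least 10 CPM in an HCC827 library. Of those 7, 0 were at least 2-fold higher, beside 10.5% of all genes, and 1 was at least 2-fold lower, beside 7.65%. Their median log2 ratio was -0.68. With only 7 genes, these counts cannot be told from the shares over all genes.

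**Figure D2:**
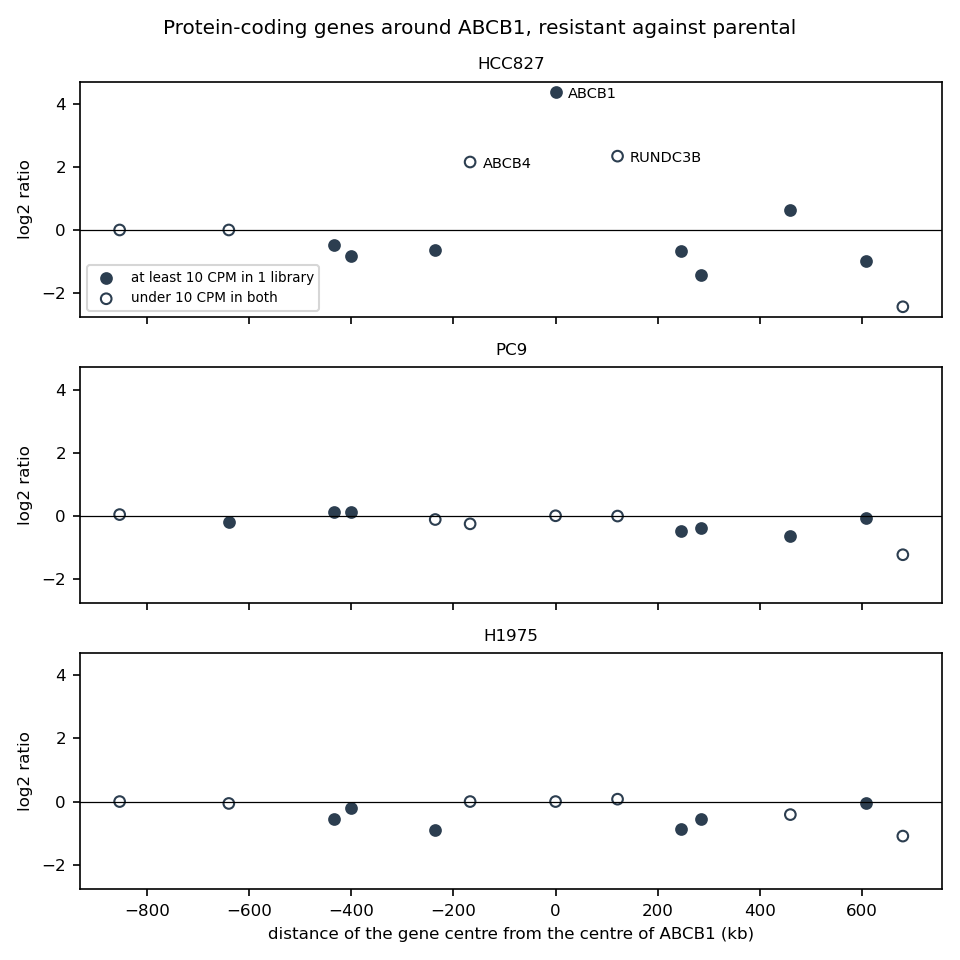
Log2 ratio of resistant to parental CPM (vertical axis, 1 CPM added) of the protein-coding genes around ABCB1 against the distance of their centres in kb (horizontal axis), 1 panel per line; filled points had at least 10 CPM in 1 of the 2 libraries. In HCC827 the points of ABCB1 (4.37), RUNDC3B (2.34) and ABCB4 (2.15) stand above all other genes of the window, while in PC9 and H1975 these 3 genes lie between -0.26 and 0.08.

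ABCC2 (MRP2), an apical pump for conjugated drugs and bilirubin, went the opposite way in HCC827. It had 3.41 CPM (91 reads) in the resistant and 98.0 CPM (2688 reads) in the parental HCC827 library, 188 CPM in the resistant and 101 CPM in the parental PC9 library, and 9.39 CPM in the resistant and 4.75 CPM in the parental H1975 library. The resistant HCC827 value was 28.7-fold lower, and the ratio was 1.87 in PC9 (95% counting interval 1.77 to 1.97) and 1.98 in H1975 (1.58 to 2.48), so the HCC827 pair alone had the lower value in its resistant library. Per length ABCC2 ranked 26 of the 45 in resistant and 8 in parental HCC827, but 3 in resistant and 8 in parental PC9.

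ABCG2, a pump of broad substrate range at the plasma membrane, was lower in the resistant library of every line, and its level also differed widely between lines. It had 1.24 CPM (33 reads) in resistant and 8.67 CPM (238 reads) in parental HCC827, 20.5 CPM in resistant and 27.4 CPM in parental PC9, and 57.3 CPM in resistant and 77.3 CPM in parental H1975. The parental libraries thus ran from HCC827 at the low end to H1975 at the high end, and the resistant ones had the same order. The parental value was 7.01-fold the resistant one in HCC827, 1.34-fold in PC9 and 1.35-fold in H1975.

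ABCC1 (MRP1), which exports glutathione conjugates, and ABCC4 (MRP4), which exports cyclic nucleotides and nucleoside analogues, were higher in resistant HCC827 and close to the parental level in the other lines. ABCC1 had 160 CPM in resistant and 56.0 CPM in parental HCC827, 122 CPM in resistant and 128 CPM in parental PC9, and 71.0 CPM in resistant and 64.8 CPM in parental H1975. ABCC4 had 127 CPM in resistant and 50.4 CPM in parental HCC827, 25.6 CPM in resistant and 27.5 CPM in parental PC9, and 48.2 CPM in resistant and 46.9 CPM in parental H1975. Their HCC827 ratios were 2.85 (95% counting interval 2.69 to 3.02) and 2.51 (2.36 to 2.68).

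ABCC3 (MRP3), a basolateral pump for glucuronides, was lowest relative to its parental line in H1975. It had 149 CPM in resistant and 167 CPM in parental HCC827, 109 CPM in resistant and 134 CPM in parental PC9, and 27.8 CPM in resistant and 72.8 CPM in parental H1975, where the parental level was 2.62-fold the resistant one. ABCC5 (MRP5), another exporter of cyclic nucleotides, had 37.9 CPM in resistant and 30.9 CPM in parental HCC827, 88.8 CPM in resistant and 56.5 CPM in parental PC9, and 67.3 CPM in resistant and 54.45 CPM in parental H1975. ABCC10 (MRP7), which exports taxanes, had 25.0 CPM in resistant and 22.9 CPM in parental HCC827, 18.5 CPM in resistant and 11.97 CPM in parental PC9, and 33.3 CPM in resistant and 24.4 CPM in parental H1975. Both stood slightly above the parental library in each line, by 1.09-fold to 1.57-fold, although the counting interval of ABCC10 in HCC827 (0.977 to 1.22) includes 1. ABCC11 (MRP8) held 1 to 17 reads in the resistant and 5 to 11 reads in the parental libraries, too few to tell its levels apart.

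**Figure D3:**
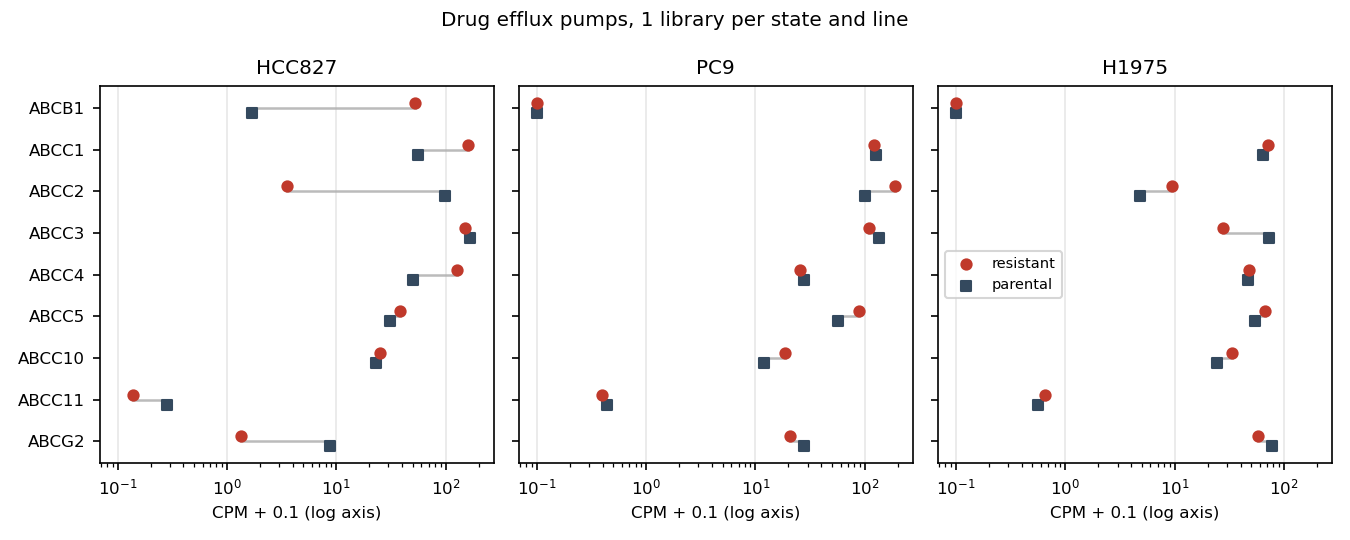
CPM plus 0.1 on a log axis (horizontal) of the 9 drug efflux pumps, 1 panel per line; red circles are resistant and dark squares parental libraries, 1 library each, so no error is drawn. ABCB1 and ABCC2 show the widest gaps, both in HCC827 and in opposite directions, and ABCB1 sits at the lower edge of the PC9 and H1975 panels, where it had 0 reads.

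The pump that led by TPM was not the same gene in both states of HCC827 and PC9. ABCC1 (56.8 TPM) led in resistant and ABCC3 (61.1 TPM) in parental HCC827, ABCC2 (68.9 TPM) led in resistant and ABCC3 (49.6 TPM) in parental PC9, and ABCG2 led in both H1975 libraries with 34.4 TPM in the resistant and 49.6 TPM in the parental one. The leading and second pump lay close in resistant HCC827 (56.8 and 51.4 TPM), parental PC9 (49.6 and 48.8 TPM) and resistant H1975 (34.4 and 32.25 TPM). With 1 library each, the order of such neighbours is not resolved.

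Among the lipid transporters, ABCA1, which loads cholesterol onto apolipoprotein A-I, differed in opposite directions between lines. ABCA1 (ENSG00000165029, hg38 chromosome 9, 104781002 to 104928237) had 98.6 CPM in resistant and 40.9 CPM in parental HCC827, 19.6 CPM in resistant and 67.9 CPM in parental PC9, and 47.3 CPM in resistant and 115 CPM in parental H1975. The resistant library was 2.41-fold higher in HCC827, and the parental level was 3.46-fold the resistant one in PC9 and 2.42-fold in H1975. ABCG1, its partner in sterol efflux to HDL, was at or under 1.36 CPM everywhere. ABCA2, an endolysosomal transporter, had 102 CPM in resistant and 52.2 CPM in parental HCC827, 64.4 and 66.0 CPM in resistant and parental PC9, and 36.0 and 47.5 CPM in resistant and parental H1975, log2 ratios of 0.96, -0.03 and -0.39.

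ABCA3, the phospholipid transporter of surfactant-storing lamellar bodies, was higher in the resistant library of HCC827 and H1975. It had 70.5 CPM in resistant and 22.7 CPM in parental HCC827, 16.1 CPM in resistant and 15.3 CPM in parental PC9, and 172 CPM in resistant and 102 CPM in parental H1975. The ratios were 3.10 (95% counting interval 2.83 to 3.40), 1.05 (0.906 to 1.23) and 1.69 (1.61 to 1.77), so the PC9 interval includes 1. In the same libraries the surfactant gene SFTPB was at or under 3.32 CPM, and at 0.0375 CPM in resistant HCC827.

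ABCA12, which carries glucosylceramide in keratinocytes, had 4.24 CPM (113 reads) in resistant and 54.3 CPM (1489 reads) in parental HCC827, 12.8-fold lower. It had 2.64 CPM in resistant and 0.824 CPM in parental PC9, and 1.05 CPM in resistant and 1.95 CPM in parental H1975, all low. ABCA4, known as the retinoid flippase of photoreceptors, had 4.16 CPM in resistant and 5.94 CPM in parental HCC827, 16.0 CPM in resistant and 5.04 CPM in parental PC9, and 2 reads in each H1975 library; the PC9 ratio was 3.18 (95% counting interval 2.55 to 3.99). ABCA5, a lysosomal transporter, had 1.24 CPM in resistant and 3.06 CPM in parental HCC827, 4.74 CPM in resistant and 4.07 CPM in parental PC9, and 11.7 CPM (355 reads) in resistant and 1.91 CPM (45 reads) in parental H1975. The H1975 ratio of 6.10 had a counting interval of 4.47 to 8.52. In the same cluster on chromosome 17, ABCA10, which overlaps the end of ABCA5 in the files, had 0.493 CPM in resistant and 1.15 CPM in parental H1975, and ABCA6, ABCA8 and ABCA9 held at most 4 reads in any library, too few to compare. ABCA7, a phospholipid transporter, was at 20.5 and 28.1 CPM in resistant and parental HCC827 and at 9.403 to 18.4 CPM in the other libraries.

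ABCC9, the SUR2 subunit of ATP-sensitive potassium channels, was the member furthest above its parental level in PC9. It had 5.70 CPM in resistant and 1.90 CPM in parental HCC827, 20.5 CPM (489 reads) in resistant and 2.13 CPM (44 reads) in parental PC9, and 0.821 CPM in resistant and 2.59 CPM in parental H1975. The PC9 ratio was 9.62 (95% counting interval 7.06 to 13.4). KCNJ8 and KCNJ11, the channel pores that SUR proteins regulate, were at or under 1.70 CPM in all libraries. ABCC6, which mediates ATP release, had 16.05 CPM in the resistant HCC827 library and 7.84 CPM in the parental one; no other library passed 1.995 CPM.

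The organelle transporters of the ABCB group were mostly lower in resistant HCC827. ABCB6, a porphyrin transporter, had 7.20 CPM in resistant and 20.5 CPM in parental HCC827, 25.6 CPM in resistant and 16.2 CPM in parental PC9, and 29.5 CPM in resistant and 22.1 CPM in parental H1975, but 21.9% of its reads mapped uniquely, so these values are uncertain. From uniquely mapping reads alone its HCC827 log2 ratio was -0.97, against -1.39 from all reads. In the order HCC827, PC9, H1975, the mitochondrial ABCB8 had log2 ratios of -0.92, 0.34 and -0.54, ABCB10 had -0.36, -0.52 and 0.11, and the lysosomal peptide transporter ABCB9 had -0.06, 0.48 and -0.14 with 64.4% unique reads.

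Where a library of the line reached 10 CPM, the ABCD transporters and the soluble members differed by less than 2-fold. ABCD3, which brings branched and long fatty acids into peroxisomes, had 81.9 to 145 CPM in the resistant and 78.3 to 117 CPM in the parental libraries. ABCD4, which releases cobalamin from lysosomes, had log2 ratios of 0.31, -0.64 and 0.22. ABCE1, the ribosome recycling factor, was the ABC gene with the most TPM in 5 of the 6 libraries, with 57.7% unique reads. ABCF1, a translation initiation factor, led in the sixth, resistant HCC827, with 113 TPM and had log2 ratios of 0.68, -0.09 and 0.61. ABCF3 had 70.9 CPM in resistant and 56.3 CPM in parental HCC827, 54.8 CPM in resistant and 47.9 CPM in parental PC9, and 50.2 CPM in resistant and 47.5 CPM in parental H1975. The ABCF2 counts rest on reads of which 5.65% mapped uniquely and are left without further comparison.

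Counted at 2-fold or more where either library of a line reached 10 CPM, 8 of 24 ABC genes passed in HCC827 (33.3%), where 18.1% of all genes did. The 5 higher ones were ABCB1, ABCC1, ABCC4, ABCA1 and ABCA3, beside 10.5% of all genes higher, and the 3 lower ones were ABCC2, ABCA12 and ABCB6, beside 7.65% lower. In PC9, 3 of 24 passed (12.5%, against 4.14% of all genes): ABCC9 and ABCA4 higher (2.42% of all genes higher) and ABCA1 lower (1.72% lower). In H1975, 3 of 22 passed (13.6%, against 4.98%): ABCA5 higher (1.76% of all genes higher) and ABCA1 and ABCC3 lower (3.22% lower). Of the drug efflux pumps at that level, 4 of 7 passed in HCC827, 0 of 7 in PC9 and 1 of 6 in H1975, and of the lipid and sterol transporters 3 of 5, 2 of 4 and 2 of 5. The median log2 ratio of the ABC genes counted was 0.06 in HCC827, -0.03 in PC9 and 0.10 in H1975, against -0.01, -0.02 and 0.06 over all genes; for the pumps alone it was 0.28, -0.07 and 0.08, and for the lipid transporters 0.96, 0.02 and -0.05. The counts are small and have no replicate check, and the differences between these shares were not tested. Epithelial or mesenchymal markers differed by 2-fold in each of the 3 lines as well, as given above, and mitochondrial genes in HCC827 took 6.62% of reads in the resistant and 3.32% in the parental library; their part in these counts was not tested.

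**Figure D4:**
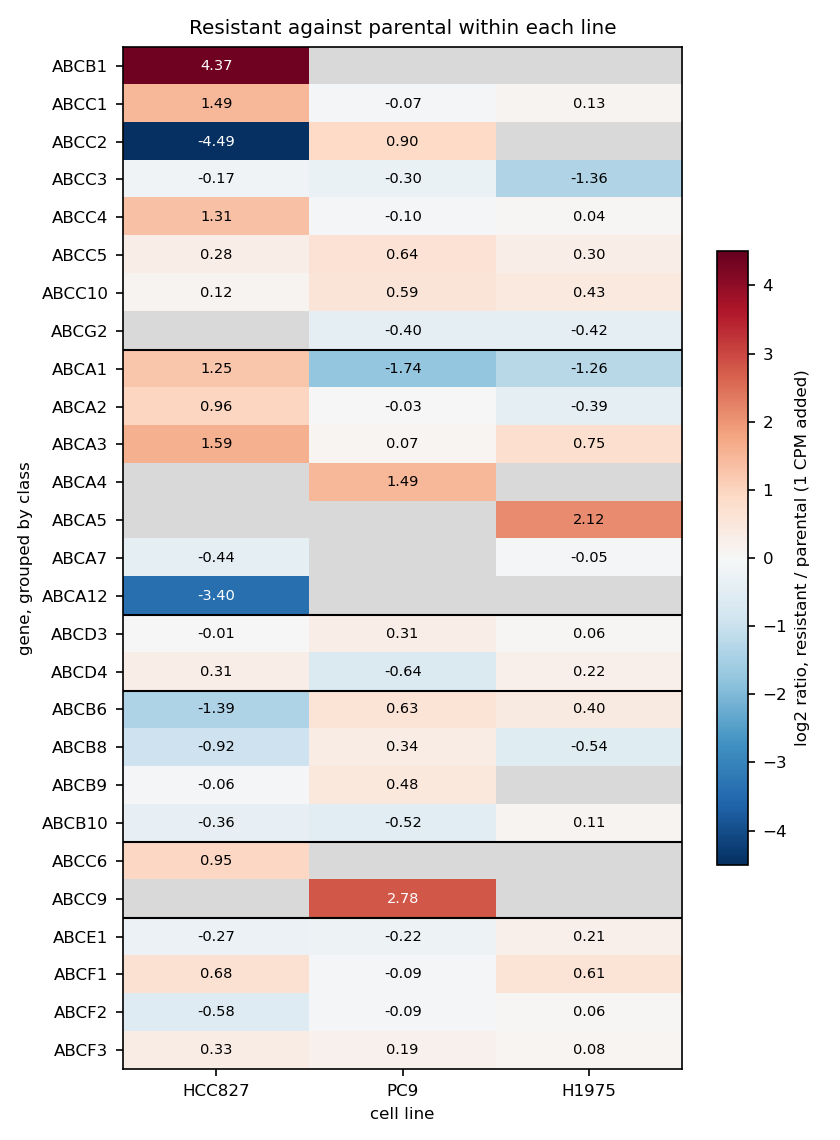
Log2 ratio of resistant to parental CPM (colour and number, 1 CPM added) for ABC genes with at least 10 CPM in a library, by cell line (columns) and class (blocks from top: drug efflux pumps, lipid and sterol transporters, ABCD family, organelle ABCB transporters, channel regulator and related, translation factors); grey cells had under 10 CPM in both libraries. HCC827 holds the widest values, from -4.49 for ABCC2 to 4.37 for ABCB1, and ABCA1 changes sign between HCC827 and the other lines.

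Taken over the 3 lines, the comparison asked whether any ABC gene separated resistant from parental cells in common. Of the 45 genes 29 passed the filter on low counts, which can favour genes high in 1 state, and 0 of the 29 passed the edgeR quasi-likelihood test with Benjamini-Hochberg adjustment over all 13541 genes, where 0 genes passed (0%; 502 at an unadjusted p under 0.05, 0 of them ABC genes). DESeq2 called 58 genes (0.428%), 0 of them ABC genes. Below an unadjusted p of 0.05 DESeq2 had 2 of the 29 ABC genes, beside 923 of the 13541 genes. With limma-voom 0 genes were called, and 3 of the 29 ABC genes, beside 763 of all genes, had an unadjusted p under 0.05. The fitted log2 fold change was 0.82 ± 0.34 (SE, n = 3 lines) for ABCA3 and -1.13 ± 0.56 for ABCG2, each with an edgeR adjusted p of 0.903. It was 0.42 ± 0.17 for ABCC5, 0.40 ± 0.22 for ABCC10 and -0.61 ± 0.30 for ABCC3, also at an edgeR adjusted p of 0.903. The spread between lines was wide where HCC827 went its own way, as in ABCC2 (-0.50 ± 1.45) and ABCA1 (-0.65 ± 0.68). ABCC1 was fitted at 0.52 ± 0.37 and ABCC4 at 0.42 ± 0.34 over all lines, and at 0.03 and -0.04 without HCC827.

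Of the 29 tested genes, 4 were higher in all 3 resistant libraries (13.8%, where 14.3% of all tested genes were) and 3 were lower in all 3 (10.3%, where 13.5% were), so the shares lie near those of all genes. The higher ones were ABCA3, ABCC5, ABCC10 and ABCF3, and the lower ones ABCC3, ABCG2 and ABCA10, of which ABCA10 rests on 0 and 1 reads in resistant and parental HCC827.

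**Figure D5:**
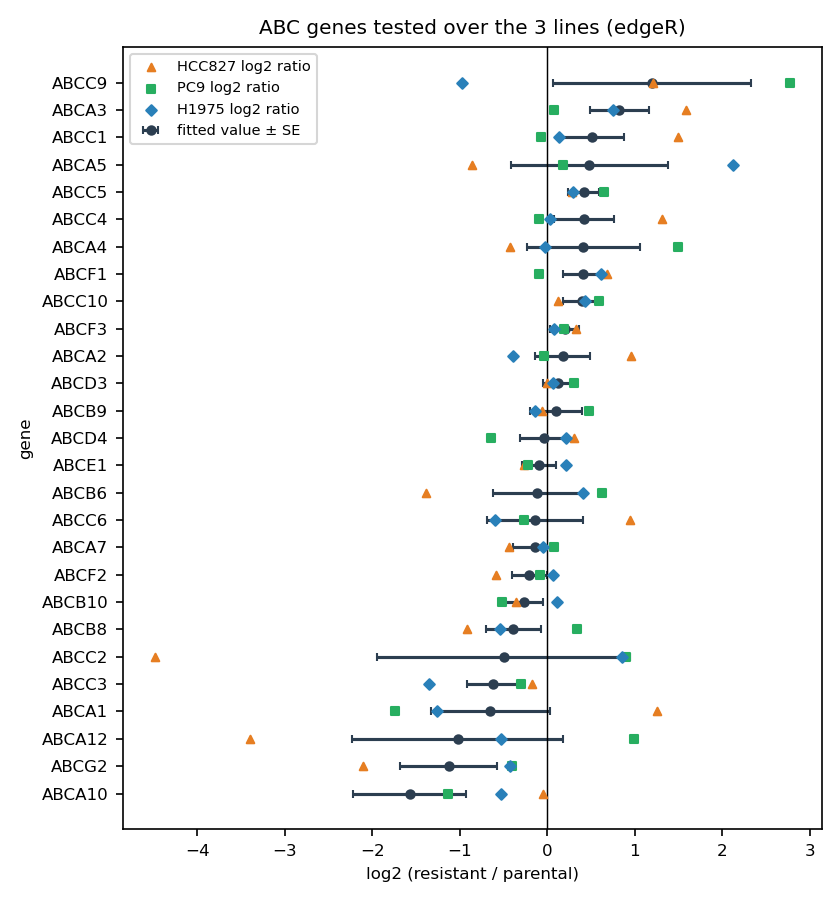
Fitted log2 fold change of resistant against parental (dark points, bars are ± SE derived from the edgeR F statistic, n = 3 lines) for tested ABC genes, with the log2 ratio of each line as coloured markers. No gene drawn passed after adjustment over all genes; the line values of ABCC2, ABCA12, ABCA1, ABCC9 and ABCA5 lie on both sides of 0.

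Whether the change differed between the gefitinib-selected lines and osimertinib-selected H1975 was tested with 1 term per drug. In edgeR 0 of 29 ABC genes and 0 of 13541 genes passed (0%; 434 at an unadjusted p under 0.05, 2 of them ABC genes). The largest fitted difference was 4.08 ± 1.21 on the log2 scale for ABCC9 (unadjusted p = 0.0248, edgeR adjusted p = 1), and ABCC3 had 1.15 ± 0.41 (unadjusted p = 0.0443, edgeR adjusted p = 1). ABCA5, higher in H1975, had -3.14 ± 1.18 (unadjusted p = 0.0523, edgeR adjusted p = 1). DESeq2 called 77 genes for this difference, 0 of them ABC genes. Only 1 residual degree of freedom remains in the fit, and since H1975 alone met osimertinib, drug, EGFR genotype and cell line cannot be told apart.

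Intron reads, which the files give apart from exon reads, offer a second readout of the same libraries. For each of the 8 ABC genes at 2-fold or more in HCC827, the 3 in PC9 and the 3 in H1975, the intron log2 ratio had the sign of the exon one. The same share over all genes was not computed, so whether this is particular to ABC genes cannot be told. These genes were picked by their exon ratio in the same libraries, so their intron reads are no independent check. ABCB1 had 62 intron reads in resistant and 0 in parental HCC827, and ABCC2 had 31 in resistant and 355 in parental HCC827. ABCC9 had 113 intron reads in resistant and 11 in parental PC9, and ABCA5 had 156 in resistant and 12 in parental H1975. ABCA1 introns differed less than its exons, its intron log2 ratio being 0.27 (HCC827), -1.11 (PC9) and -0.245 (H1975) beside exon values of 1.25, -1.74 and -1.26. Reads of a gene that overlaps an intron would be counted there too.

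Other genes of the pathway were taken from 4 lists, and 0 members of each passed the edgeR test, where 0 of all 13541 genes passed. Of 13 regulators of ABC genes, 9 had at least 10 CPM in HCC827, 10 in PC9 and 10 in H1975. At that level 2 were at least 2-fold higher and 1 lower in HCC827, beside 10.5% and 7.65% of all genes. In PC9 and H1975 0 passed, beside 4.14% and 4.98% of all genes. In the order HCC827, PC9, H1975, the log2 ratio was 1.61, 0.50 and 0.23 for PPARA, a fatty acid sensor. PPARG had -0.81, -0.31 and -0.76, and the xenobiotic receptor AHR had -1.11, -0.33 and -0.22. NR1H3, an LXR sterol receptor that drives ABCA1, had -0.85, -0.51 and 0.24, and was under 10 CPM in both HCC827 libraries. The other LXR receptor, NR1H2, had 0.61, 0.53 and 0.08. NR1I2, the pregnane X receptor known to induce ABCB1 in liver, was at or under 0.197 CPM in every library. Of the 7 other LXR targets, 3 had at least 10 CPM in HCC827, 6 in PC9 and 5 in H1975. At that level 2 were at least 2-fold lower in HCC827, beside 7.65% of all genes. In PC9 2 were higher and 1 lower, beside 2.42% and 1.72% of all genes, and 0 passed in H1975, beside 4.98%. The counts are small and were not tested. The lipid factor SREBF1 had -1.78, -0.74 and 0.24, the desaturase SCD -3.08, 1.60 and 0.09, the ubiquitin ligase MYLIP -0.89, -1.08 and -0.37, and the lipid carrier APOE 0.04, 1.42 and -0.22. PLTP and SMPDL3A, under 10 CPM in HCC827, had 1.00 and 0.80 there.

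Of 12 other drug transport genes, 9 had at least 10 CPM in HCC827, 7 in PC9 and 6 in H1975. At that level 1 was at least 2-fold higher and 1 lower in HCC827, beside 10.5% and 7.65% of all genes. In PC9 and H1975 0 passed, beside 4.14% and 4.98% of all genes. The cation transporter SLC22A3 had, in the same order, 1.67, 0.00 and -0.25, the organic anion transporter SLCO4A1 -1.72, -0.62 and 0.42, the vault protein MVP 0.70, 0.82 and -0.44, and the copper exporter ATP7A -0.68, -0.33 and -0.07. Of 17 relatives and partners, 12 had at least 10 CPM in HCC827, 13 in PC9 and 12 in H1975. At that level 1 was at least 2-fold higher, in PC9, where 2.42% of all genes were, and 0 were lower in any line. It was the scaffold PDZK1, which binds apical transporters such as ABCC2, with 0.44, 1.94 and -0.65. The linkers that tie apical pumps to actin had 0.69, 0.35 and -0.46 (EZR), 0.39, 0.76 and 0.27 (MSN) and -0.07, -0.58 and 0.13 (RDX), and the scaffold SLC9A3R1 (NHERF1) had -0.85, -0.03 and -0.61. CFTR, the chloride channel of the ABCC group, and APOA1, the acceptor of ABCA1, were at or under 0.0849 CPM in every library.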

How the data were processed

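RNA of 3 lung cancer lines was sequenced as 3 resistant and 3 parental libraries from stranded mRNA kits, per the labels' protocols. Trimmomatic, Bowtie2 and hg38 appear in the submitters' processing notes; for the counting tool and annotation nothing is given in the sources used here. The authors deposited whole-number counts per gene (total and uniquely mapping exon reads, exon-exon and intron reads, per the file headers) and TPM per gene, per the file headers. A series table of rounded TPM was not used.

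Members were matched by symbol and biotype. Total exon reads were TMM-scaled, filtered with filterByExpr (minimum count 10, minimum total 15) and tested on 13541 genes with edgeR 4.0.16 (R 4.3.3) quasi-likelihood tests, two-sided, with the cell line as a block because each subline came from its own parental line, threshold 0.05. The common dispersion was 0.149. Each SE given with an edgeR value was derived from the test, as the absolute log2 fold change divided by the square root of F. The scripts were tested on simulated counts. Within a line, log2 ratios used 1 CPM added, and counting intervals are 95% Clopper-Pearson. Ratios and folds not on the log2 scale had nothing added. At low levels they lie further from no change, as for ABCB1 in HCC827 (32.8, beside a log2 ratio of 4.37). The counts at 2-fold used the log2 ratios. DESeq2 1.42.0 and limma 3.58.1 were alternatives, with other scalings, filters, pseudocounts (0.25 and 4 CPM), unique reads, TPM, no block and each line left out.

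Members and lists were chosen with earlier results of these data known. Named with every value were the 9 efflux pumps, the 5 highest and 5 lowest members at 2-fold per line, up to 5 per direction with the same sign in all lines, and, for each pathway list, up to 4 genes by mean absolute log2 ratio with at least 10 CPM; others are given shortly. NR1H2, NR1I2, KCNJ8, KCNJ11, CFTR, APOA1, PLTP, SMPDL3A, RDX, RUNDC3B, the other members given in short and the single markers named were picked with their values seen. Promoters are RefSeq windows of GRCh38.p14. Some members enter the counts and sums but are not reported here by name.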

Additional observations from a re-analysis of the deposited data

Results flagged for a closer look

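ABCA1 was at least 2-fold higher in 1 line and at least 2-fold lower in the other two. The log2 ratio of resistant to parental was 1.25 for HCC827, -1.74 for PC9 and -1.26 for H1975. The difference between HCC827 and the other lines was not tested.

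ABCC9 was above its parental level in both gefitinib-selected lines and below it in the osimertinib-selected one, the log2 ratio being 1.21 (HCC827), 2.78 (PC9) and -0.98 (H1975). The test of that difference gave an edgeR adjusted p of 1 over all genes (unadjusted p = 0.0248; log2 difference 4.08 ± 1.21, higher in 2 of 2 gefitinib-selected lines). ABCC9 stayed under 10 CPM in HCC827 and H1975.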

How the results depend on the processing

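The count of ABC genes called over the lines was 0 under each of the 10 alternatives run, DESeq2, limma-voom, uniquely mapping reads, 3 left-out lines and no replicate block among them (edgeR without the block: 0 called), and the count called for the difference between drugs was 0 under its 5. Over the lines only DESeq2 called any gene at all (58 of 13541), so under the other settings the count of ABC genes could only be 0. For the difference between drugs, too, DESeq2 alone called any gene. The unchanged 0 therefore does not show that the results are stable. The cell line pairs the libraries by origin, and 0 of all genes were called with or without the block. The counts at 2-fold in each line stayed within 1.5 times, except in PC9 with deposited TPM, where 1 gene passed in place of 3, since fewer genes reach 10 TPM than 10 CPM. ABCB6, at -0.12 over the lines, was at 0.032 with uniquely mapping reads and at 0.085 with no replicate block; the cause was not tested. Leaving out 1 line gave fitted log2 values from -1.95 to 0.94 for ABCC2, -0.037 to 0.67 for ABCC4, -2.37 to 0.37 for ABCA12, -0.55 to 0.53 for ABCB6, -0.015 to 2.44 for ABCC9, -0.46 to 1.24 for ABCA4 and -0.52 to 1.40 for ABCA5, so their direction rests on 1 line. The sign was kept but the value moved for ABCA1 (-1.54 to -0.014 without PC9), ABCC1 (0.026 without HCC827, to 0.81), ABCG2 (-1.56 to -0.43 without HCC827), ABCC3 (-0.85 to -0.22 without H1975) and ABCA3 (0.42 to 1.18), and less for ABCC5, ABCC10 and ABCF3. Of the ratios recomputed within a line, 31 moved beyond their counting error and no ratio at 2-fold changed sign. The 401 that stayed within it include the settings that changed only the minimum level, which cannot alter a ratio. Those 401 thus overstate how stable the ratios were. Single libraries, the 12 genes under 1 CPM and shared reads in ABCB6, ABCB9, ABCE1 and ABCF2 set the limits of these values.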

Other observations

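Exon and intron reads went apart for ABCC9 in HCC827. The exon log2 ratio was 1.21 (152 reads in the resistant and 52 in the parental library), while the intron log2 ratio was -1.36 (85 reads in the resistant and 267 in the parental library), and the reads across exon junctions were 85 in the resistant and 10 in the parental library. In PC9 both readouts of ABCC9 were higher in the resistant library, at 2.78 and 1.90.

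ABCC3 also had lower intron reads in resistant HCC827, 750 against 1599 in the parental library (log2 ratio -1.03), at a nearly level exon log2 ratio of -0.17. In H1975 its intron and exon values were close, at -1.20 and -1.36.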
